A study of Homo sapiens with 16 samples.

Results

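Tight junctions seal the space between epithelial cells, and 9 genes of this structure were followed through the response to hepatocyte growth factor (HGF). They were 5 claudins (CLDN1, CLDN2, CLDN4, CLDN7 and CLDN12), occludin (OCLN), the scaffolds TJP1 and TJP3, and the adhesion molecule F11R. They were chosen by gene symbol, with earlier results of these data known, and each was found once among the 42351 genes of the count table. All 9 passed the filter on low counts, which left 15067 genes for testing. HGF is the ligand of the receptor tyrosine kinase MET, and the study compared cells with wild-type (wt) MET with cells whose MET lacks exon 14 (MET∆14). Polyadenylated RNA was sequenced in 16 libraries, 2 for each MET status and time.

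The cells with wt MET were A549 in the labels, a human lung adenocarcinoma line. The cells with MET∆14 were NCI-H596, a human lung adenosquamous line that, in the study's account, expresses only the mutated allele. According to the labels, both lines were kept for 12 h without serum before HGF was added, while the study's methods give a longer time. They were collected at 0, 3, 6 and 12 h of HGF. The 0 h libraries received no HGF and are the only controls. No library without HGF was collected at 3, 6 or 12 h, so HGF and further time in culture cannot be told apart. Changes after HGF, called responses below, carry this limit. No dose of HGF is given in the labels. Each MET status was represented by 1 line, so that every difference between wt MET and MET∆14 is also a difference between A549 and NCI-H596, and these cannot be told apart. The study's text names EKVX as its cells with wt MET, while the labels of these libraries give A549.

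Claudins are small proteins with 4 membrane-spanning parts that join between neighbouring cells into strands, and the mix of claudins sets which ions and molecules pass. Occludin spans the membrane in the same way, and F11R, also called JAM-A, is a member of the immunoglobulin superfamily that takes part in junction assembly. Below the membrane, the PDZ-domain scaffolds TJP1 (ZO-1) and TJP3 (ZO-3) tie these proteins to the actin cytoskeleton. HGF is also known as scatter factor, because epithelial cells exposed to it loosen their contacts and move apart.

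Library totals ranged from 13226488 to 21970052 counts with wt MET and from 10158590 to 23909304 with MET∆14. The replicate libraries of MET∆14 at 12 h differed the most from each other, with a chi-square per degree of freedom of 36.1, against 2.85 to 10.4 for the other pairs. CDKN2A, which is deleted in A549, had 0 counts in every wt MET library and 86.0 to 157 CPM with MET∆14, where CPM scales the counts of a gene to the size of its library. Summed over 6 epithelial markers, levels were 3153 to 4666 CPM with wt MET and 2240 to 3603 CPM with MET∆14, while 3 leukocyte markers together stayed at or below 0.453 CPM. Within the epithelial sum, KRT7 and KRT18 were higher with wt MET, whereas CDH1 was at 2.54 to 12.6 CPM with wt MET and 80.6 to 124 CPM with MET∆14, and KRT19 at 26.7 to 53.1 CPM against 930 to 1753 CPM. The 4 squamous markers summed to 0.970 to 3.09 CPM with wt MET and to 2315 to 3274 CPM with MET∆14. The mesenchymal markers VIM, CDH2 and FN1 together were at 1526 to 1750 CPM with wt MET and at 1609 to 2266 CPM with MET∆14. MET itself was at 1206 to 1538 CPM in wt MET libraries and at 369 to 443 CPM in MET∆14 libraries. In RNA from whole cultures, fewer cells expressing a gene and less RNA per cell cannot be told apart.

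The DNA before the start sites was examined for the binding motifs of factors known to act on junction genes. Promoter windows of 250 bases before the start were taken from RefSeq (GRCh38.p14) for 8 of the 9 members, which had 15 windows in all, and F11R had no entry. On either strand, the E-box CAGGTG, which repressors of the SNAI and ZEB families bind, the AP-1 motif TGANTCA and the GRHL motif AACCNGTT were searched. The E-box was found in 5 windows of 4 members, OCLN, TJP1, TJP3 and CLDN7, against 17.5% of all 35116 windows of that length. One CLDN7 window held 4 of them, and 0.464% of all windows held 3 or more. AP-1 motifs were found in CLDN2 and in CLDN4, which held 2, against 6.57% of all windows. No GRHL motif was found in the members' windows, and 1.49% of all windows held one. These are matches of letters and were not shown to be bound. The matched stretches are printed 5′ to 3′ on the gene's strand with the motif in capitals and up to 10 bases on each side, so that they can be read beside the levels of these genes.
CLDN2 AP-1, chrX:106900094-106900120, + strand, motif starting 60 bases before the start site: atttttctccTGATTCAtctcatgcca
CLDN4 AP-1, chr7:73830746-73830770, + strand, motif starting 242 bases before the start site: ctgggctgTGATTCAgtgtctgtct
CLDN4 AP-1, chr7:73830825-73830851, + strand, motif starting 161 bases before the start site: gactggatagTGACTCAgggacccggg
CLDN7 E-box, chr17:7262637-7262662, - strand, motif starting 174 bases before the start site: tcttcctcctCACCTGggcaaggagg
CLDN7 E-box, chr17:7262598-7262623, - strand, motif starting 135 bases before the start site: acttccggttCAGGTGagtgtccctt
CLDN7 E-box, chr17:7262483-7262508, - strand, motif starting 20 bases before the start site: tacatatactCAGGTGcgccccacct
CLDN7 E-box, chr17:7262479-7262497, - strand, motif starting 9 bases before the start site: aggtgcgcccCACCTGtcc
OCLN E-box, chr5:69492504-69492529, + strand, motif starting 33 bases before the start site: atccgagtttCAGGTGaattggtcac
OCLN E-box, chr5:69492647-69492672, + strand, motif starting 133 bases before the start site: taggacgcagCAGGTGggactcgcgg
TJP1 E-box, chr15:29969122-29969147, - strand, motif starting 88 bases before the start site: ggccggcgcgCAGGTGgcccggcctc
TJP3 E-box, chr19:3721720-3721736, + strand, motif starting 7 bases before the start site: ggaagaggggCAGGTGc
Most of these stretches also lie in an annotated exon of another transcript. Only the TJP1 stretch lies outside every exon, and 13 of the 26 bases of the second OCLN stretch do. For the scaffolds, whose windows with an E-box touch no annotated untranslated region, although 120 bases of the TJP3 window are exon of another transcript, the whole 250 bases are shown, TJP3 at chr19:3721487-3721736 on the + strand and TJP1 at chr15:29969050-29969299 on the - strand, again with the E-box in capitals.
TJP3: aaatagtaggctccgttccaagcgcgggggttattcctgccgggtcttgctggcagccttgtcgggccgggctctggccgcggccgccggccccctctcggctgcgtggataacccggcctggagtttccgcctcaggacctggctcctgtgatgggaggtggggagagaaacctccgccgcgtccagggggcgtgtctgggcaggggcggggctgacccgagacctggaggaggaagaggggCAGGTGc
TJP1: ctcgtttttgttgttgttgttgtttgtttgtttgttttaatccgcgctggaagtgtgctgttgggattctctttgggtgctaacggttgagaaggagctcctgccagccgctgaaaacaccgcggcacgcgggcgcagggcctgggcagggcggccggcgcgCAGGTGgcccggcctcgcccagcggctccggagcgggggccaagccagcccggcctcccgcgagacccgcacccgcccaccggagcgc

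Before HGF, each line had its own set of tight junction transcripts, with CLDN1 as the most abundant member in both. CLDN7, TJP3, CLDN4 and F11R were higher in MET∆14 cells, whereas TJP1, OCLN, CLDN2, CLDN12 and CLDN1 were higher in wt MET cells. All 9 members passed the test of the 0 h libraries (4 higher and 5 lower with MET∆14), against 80.2% of all genes tested (40.6% higher and 39.6% lower), so that the number of calls is near the background for 2 different lines. What differs between members is the size and direction. The tests were edgeR's quasi-likelihood tests with Benjamini-Hochberg adjustment over the 15067 genes, here and in the rest of the text.

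CLDN7, a claudin that also binds the adhesion molecule EPCAM, had 36.5 and 32.6 CPM in the MET∆14 libraries at 0 h and 0.145 and 0.141 CPM in the wt MET libraries. The groups did not overlap, and each of the wt MET libraries held only 2 counts of the gene. From 1217 against 4 counts, the ratio was 240-fold (95% counting interval 93.5 to 882; adjusted p = 5.89e-12 by edgeR). EPCAM itself was at 24.4 to 37.4 CPM in the MET∆14 libraries over all times and at 0.868 to 2.97 CPM in the wt MET libraries, and its part in the CLDN7 difference was not tested. At the other end, CLDN2, which forms cation-selective pores, had 1.37 and 0.777 CPM with wt MET and 0 and 1 counts with MET∆14. Its ratio was 38.0-fold in favour of wt MET, with a wide counting interval of 6.32 to 1552 (adjusted p = 0.000135 by edgeR). These intervals cover counting error only. CLDN7 passed the filter on low counts only through MET∆14 libraries, and CLDN2 only through the wt MET libraries at 0 h. Neither test is therefore independent of the filter.

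TJP1, the scaffold ZO-1, was at 585 and 575 CPM with wt MET and at 94.7 and 102 CPM with MET∆14, a log2 difference of -2.56 (SE 0.109; adjusted p = 8.8e-12 by edgeR). The related scaffold TJP3 differed in the other direction, with 10.4 and 10.8 CPM in MET∆14 libraries against 1.37 and 0.565 CPM in wt MET libraries (log2 difference 3.45, SE 0.337, adjusted p = 1.4e-07 by edgeR). TJP3 did not pass the filter on low counts with the wt MET libraries alone, so its test is not independent of the filter either. For both scaffolds the libraries of the lines were far apart. The membrane proteins were divided in the same manner. F11R was at 326 and 310 CPM with MET∆14 and at 47.1 and 44.2 CPM with wt MET (log2 difference 2.80, adjusted p = 1.14e-11 by edgeR). OCLN was at 18.4 and 18.8 CPM with MET∆14 and at 80.8 and 75.3 CPM with wt MET (log2 difference -2.07, adjusted p = 4.4e-11 by edgeR). Neither gene's libraries overlapped between the lines. CLDN4, a sealing claudin and a receptor of clostridial enterotoxin, was higher with MET∆14 by 2.80 on the log2 scale (SE 0.257; adjusted p = 1.61e-07 by edgeR). CLDN12 and CLDN1 were lower with MET∆14, by log2 differences of -1.47 (adjusted p = 1.06e-10) and -0.74 (adjusted p = 4.82e-05).

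Levels per length, as RPKM (CPM divided by the length of the merged exons in kilobases), allow the members to be ranked against each other within a line. With wt MET at 0 h, CLDN1 (mean 114 RPKM) was followed by TJP1 (51.3 RPKM), CLDN12 (10.5 RPKM), F11R (9.01 RPKM) and OCLN (6.93 RPKM), and the other 4 members were at or below 1.29 RPKM. With MET∆14, CLDN1 (68.7 RPKM) and F11R (62.8 RPKM) were followed by CLDN7 (13.9 RPKM), CLDN4 (9.02 RPKM) and TJP1 (8.68 RPKM). TJP1 thus took a higher place among the members in wt MET cells. The merged exons of OCLN span 11259 bases, which lowers its RPKM relative to genes with short models.

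**Figure D1:**
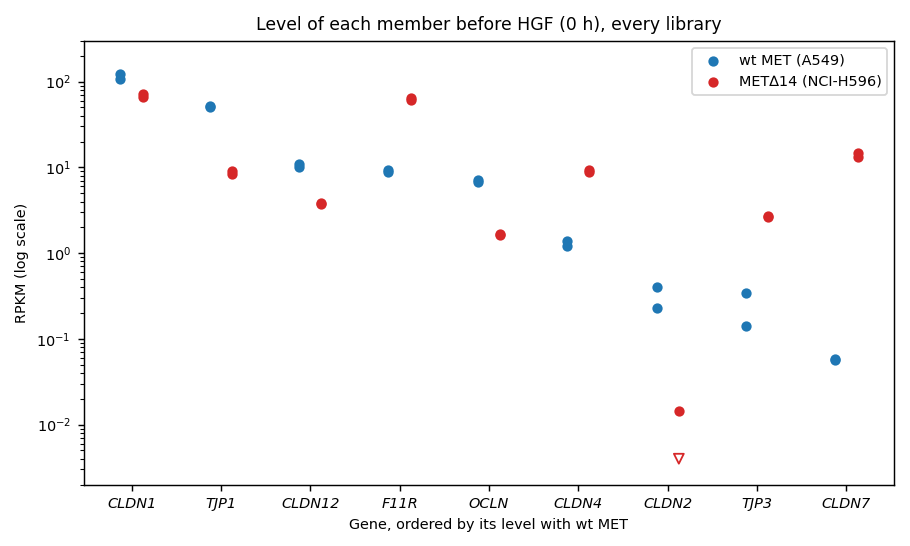
RPKM of each member (log scale) in each of the 2 libraries per line at 0 h, in the order of the wt MET level; points are single libraries and the open triangle marks a library with 0 counts. CLDN1 leads in both lines, TJP1 and OCLN sit higher with wt MET, and F11R, CLDN4, TJP3 and CLDN7 sit higher with MET∆14.

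In cells with wt MET, the clearest change after HGF was a transient rise of CLDN4, which was up at 3 and 6 h and had come down by 12 h. OCLN fell slightly and came back, CLDN12 rose late, TJP1 rose modestly, and the rare transcripts CLDN2 and TJP3 fell. Across the 3 times, 7 of the 9 members passed the test for a change at any time, against 40.3% of all genes tested. Without replicate 1 of the wt MET 0 h libraries, 3 of the 7 calls remained (CLDN4, CLDN12 and OCLN), and those of CLDN1, CLDN2, TJP1 and TJP3 were lost. At 3 h 2 members were called (17.4% of all genes), at 6 h 6 members (34.2%) and at 12 h 4 members (35.1%). All comparisons within a line share its 0 h libraries.

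CLDN4 was at 5.64 and 6.50 CPM at 0 h, at 17.7 and 23.1 CPM at 3 h, at 26.6 and 48.2 CPM at 6 h, and at 8.19 and 8.68 CPM at 12 h. Both libraries at 3 h and both at 6 h lay above every library at 0 and 12 h, and the replicates at 6 h were the farthest apart. The fold change on the log2 scale (log2 change) was 1.74 at 3 h (SE 0.271; adjusted p = 0.000563 by edgeR) and 2.62 at 6 h (SE 0.260; adjusted p = 6.52e-06), and from 6 to 12 h CLDN4 fell by 2.15 (SE 0.241; adjusted p = 7.93e-05). At 6 h this was a 6.13-fold rise. The 12 h value missed the threshold against 0 h.

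The other claudins with wt MET changed less or were rare. CLDN12, which lacks the PDZ-binding tail of the other claudins, was at 73.3 and 67.4 CPM at 0 h, 59.4 and 62.2 CPM at 3 h, 63.3 and 65.3 CPM at 6 h, and 101 and 98.9 CPM at 12 h. The 12 h libraries stood above all others, with a log2 change of 0.51 (SE 0.073; adjusted p = 0.00011 by edgeR). CLDN1, the main claudin of both lines, went from 443 and 388 CPM at 0 h to 321 and 325 CPM at 3 h, 302 and 318 CPM at 6 h, and 340 and 346 CPM at 12 h. Every library with HGF was below both 0 h libraries, but only the 6 h fall passed the test (log2 change -0.42, adjusted p = 0.0144 by edgeR). It no longer passed without replicate 1 at 0 h (-0.32), replicate 1 at 6 h (-0.36) or replicate 2 at 6 h (-0.44). The test at any time lost CLDN1 in 10 of 16 fits that each left out 1 library. These included every fit that left out a wt MET library.

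CLDN2 and TJP3 were counted in few reads with wt MET. CLDN2 had 19 and 11 counts at 0 h, 4 and 7 at 3 h, 2 and 3 at 6 h, and 6 and 5 at 12 h. All libraries with HGF were below both 0 h libraries, and the 0 h level was 6.73-fold that at 6 h (counting interval 2.59 to 22.2; adjusted p = 0.007 by edgeR). TJP3 had 19 and 8 counts at 0 h, 3 and 6 at 3 h, 2 and 4 at 6 h, and 1 and 3 at 12 h. Here too the 0 h libraries were the highest, at 8.65-fold the 12 h level (counting interval 3.02 to 34.0; adjusted p = 0.00298 by edgeR). Without replicate 1 at 0 h neither passed at these times, with adjusted p = 0.0775 for CLDN2 at 6 h and 0.0616 for TJP3 at 12 h. The calls were likewise lost without replicate 1 at 6 h for CLDN2 (adjusted p = 0.0797) and without replicate 1 at 12 h for TJP3 (adjusted p = 0.0584). The fitted log2 change of TJP3 at 12 h was -3.02 with all libraries, -2.26 without replicate 1 at 0 h, -2.22 without replicate 1 at 12 h and -4.14 without replicate 2 at 12 h. At 6 h it was -2.29 (adjusted p = 0.0109), and the call was lost without replicate 1 at 0 h (-1.52, adjusted p = 0.171) or at 6 h (-1.79, adjusted p = 0.108). CLDN7 had 0 to 2 counts in every wt MET library, and no change can be detected at this depth.

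OCLN was at 80.8 and 75.3 CPM at 0 h, 62.2 and 62.6 CPM at 3 h, 62.6 and 57.7 CPM at 6 h, and 76.8 and 84.9 CPM at 12 h. The 3 and 6 h libraries lay below all those of 0 and 12 h. The log2 change was -0.32 at 3 h (adjusted p = 0.0289 by edgeR) and -0.38 at 6 h (adjusted p = 0.00645), and OCLN rose by 0.43 from 6 to 12 h (adjusted p = 0.00803). The 3 h value passed only narrowly, with adjusted p of up to 0.168 when single libraries were left out, whereas the test at any time held in each of these 16 fits. The 6 h fall missed the threshold without replicate 1 at 0 h (adjusted p = 0.0569) or replicate 2 at 6 h (adjusted p = 0.0946), and the later rise without replicate 2 at 6 h (adjusted p = 0.138) or at 12 h (adjusted p = 0.131).

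TJP1 increased in small steps, from 585 and 575 CPM at 0 h to 659 and 671 CPM at 3 h, 739 and 733 CPM at 6 h, and 768 and 755 CPM at 12 h. The groups followed one another without overlap. The log2 change passed the test at 6 h (0.35, SE 0.102, adjusted p = 0.0164 by edgeR) and at 12 h (0.39, SE 0.102, adjusted p = 0.0075). The 6 h call was lost without replicate 1 at 0 h or either replicate at 6 h (adjusted p = 0.0608, 0.0603 and 0.0551), and the 12 h call without replicate 1 at 12 h (adjusted p = 0.0564). F11R stayed between 42.4 and 50.7 CPM in all wt MET libraries and was not called at any time (adjusted p = 0.596).

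In cells with MET∆14, the members moved in opposite directions. CLDN12 rose to 2.22-fold its 0 h level by 6 h, while F11R fell from 3 h on, TJP3 from 6 h on, and CLDN7, CLDN4 and CLDN1 were lower at 12 h. CLDN1 and TJP1 first rose at 3 h. For any time, 7 of 9 members were called, against 54.1% of all genes tested. At 3 h there were 4 calls (31.7% of all genes), at 6 h 3 (44.1%), and at 12 h 6, of which 5 were lower (38.3% of all genes called, and 20.1% called lower). Over the 8 members above the floor of 3 counts in at least 1 library of the line, the median log2 change at 12 h was -0.80, beside -0.02 over all genes. With wt MET the corresponding medians were 0.08 and 0.00, and these 8 included TJP3, which had only 1 and 3 counts at 12 h.

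CLDN12 was at 25.3 and 25.6 CPM at 0 h, 34.0 and 33.8 CPM at 3 h, 56.3 and 56.6 CPM at 6 h, and 53.5 and 53.1 CPM at 12 h. Replicates were close and no time overlapped another. The log2 change was 0.41 at 3 h (SE 0.080; adjusted p = 0.001 by edgeR), 1.15 at 6 h (SE 0.078; adjusted p = 3.31e-08) and 1.07 at 12 h (SE 0.078; adjusted p = 1.83e-07). In the gene annotation used here, 17.6% of the exon bases of CLDN12 overlap other genes on the same strand, so part of its reads may be shared with these.

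CLDN1 was at 257 and 241 CPM at 0 h, 390 and 312 CPM at 3 h, 202 and 247 CPM at 6 h, and 121 and 145 CPM at 12 h. The 3 h libraries were the highest and the 12 h libraries the lowest, without overlap with 0 h. The rise at 3 h was 0.49 on the log2 scale (SE 0.122; adjusted p = 0.00616 by edgeR) and was lost without replicate 1 at 3 h (0.33, adjusted p = 0.116) or replicate 2 at 0 h (0.45, adjusted p = 0.0615). By 12 h CLDN1 was 1.87-fold below its 0 h level (adjusted p = 5.23e-05), and the fall from 6 to 12 h alone was 1.69-fold (adjusted p = 0.000932).

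CLDN7 declined from 36.5 and 32.6 CPM at 0 h to 26.6 and 27.4 CPM at 3 h, 23.3 and 30.7 CPM at 6 h, and 13.8 and 17.4 CPM at 12 h. All later libraries were below those of 0 h, and the 12 h libraries were the lowest. The 12 h change was 2.23-fold down (log2 change -1.16, SE 0.158, adjusted p = 5.07e-05 by edgeR), and the values at 3 and 6 h missed the threshold. CLDN4 was at 41.4 and 43.4 CPM at 0 h, 56.4 and 62.3 CPM at 3 h, 38.5 and 31.7 CPM at 6 h, and 22.1 and 28.4 CPM at 12 h. Its highest libraries were at 3 h and its lowest at 12 h. Only the 12 h fall passed against 0 h (log2 change -0.76, SE 0.219, adjusted p = 0.0138 by edgeR), and it was lost without replicate 1 at 12 h (-0.58, adjusted p = 0.199) or replicate 2 at 0 h (-0.73, adjusted p = 0.0678). CLDN2 had 0 or 1 counts in each MET∆14 library.

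The scaffolds parted from each other. TJP3 was at 10.4 and 10.8 CPM at 0 h and at 10.1 and 9.84 CPM at 3 h, then at 2.47 and 3.90 CPM at 6 h and at 2.41 and 2.04 CPM at 12 h. The fall lay between 3 and 6 h, without overlap of the early and late libraries. It was 3.24-fold at 6 h (log2 change -1.70, SE 0.272, adjusted p = 0.000138 by edgeR) and 4.71-fold at 12 h (log2 change -2.24, SE 0.295, adjusted p = 3.61e-05). TJP1 was at 94.7 and 102 CPM at 0 h, 141 and 130 CPM at 3 h, 98.6 and 99.1 CPM at 6 h, and 127 and 97.6 CPM at 12 h. Only the 3 h libraries stood apart as a pair, with a log2 change of 0.46 (SE 0.105; adjusted p = 0.00346 by edgeR).

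F11R was at 326 and 310 CPM at 0 h, 226 and 228 CPM at 3 h, 154 and 202 CPM at 6 h, and 163 and 195 CPM at 12 h. Every library with HGF was below both at 0 h, and the 6 and 12 h libraries overlapped each other. The log2 change was -0.48 at 3 h (adjusted p = 0.00366 by edgeR), -0.84 at 6 h (adjusted p = 2.53e-05) and -0.83 at 12 h (adjusted p = 4.35e-05). With each line fitted alone, the 3 h value missed the threshold (adjusted p = 0.0529). A read-through transcript covers 36.6% of the exon bases of F11R. It was counted separately at 272 to 675 counts in MET∆14 libraries, and adding these counts to F11R changed none of its calls. OCLN stayed between 14.2 and 20.9 CPM and was not called (adjusted p = 0.0542 for any time). OCLN passed this test with the size factors of DESeq2, with at least 10 counts required in every library and in 5 of the 16 fits without 1 library, and also, in an alternative chosen after seeing the data, with the 10 to 28 counts of its near-identical pseudogene copy added.

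**Figure D2:**
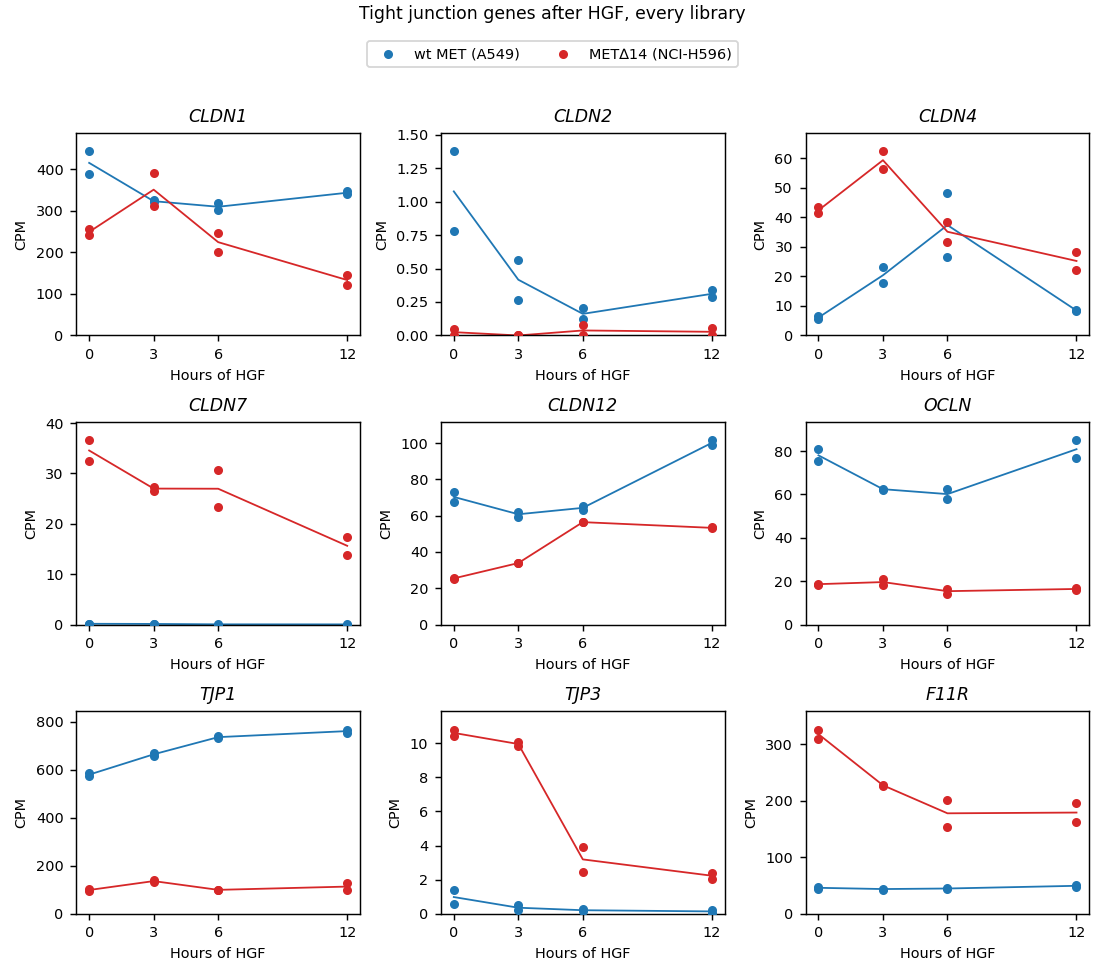
CPM (on TMM-scaled library sizes) of the 9 members against hours of HGF, with each axis starting at 0; points are single libraries (2 per line and time) and lines join their means. CLDN4 with wt MET peaks at 6 h, CLDN12 with MET∆14 goes from 25.4 to 56.5 CPM by 6 h, and F11R, TJP3 and CLDN7 with MET∆14 come down while they stay low with wt MET.

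Whether the response itself differed between the lines was tested by the interaction of line and time. It did for 6 of 9 members, CLDN1, CLDN4, CLDN12, OCLN, TJP1 and F11R, against 37.6% of all genes tested. CLDN4 and F11R had lower responses with MET∆14, CLDN12 a higher one, and CLDN1 a higher one at first and a lower one later. The test did not call CLDN2 (adjusted p = 0.542), CLDN7 (adjusted p = 0.634) or TJP3 (adjusted p = 0.304). However, CLDN2 and CLDN7 are near 0 counts in one of the lines, so that a difference could hardly be seen. TJP3 had only 1 to 19 counts per wt MET library. Its differences at single times had SEs of 0.634 to 0.768 on the log2 scale, so that a small one could be missed.

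For CLDN4, the log2 change at 6 h was lower with MET∆14 than with wt MET by 2.90 (a difference of -2.90, SE 0.336, adjusted p = 2.69e-05 by edgeR), and the test over the 3 times gave an adjusted p of 0.000131. At 6 h the lines had nearly the same CLDN4 level, 26.6 and 48.2 CPM with wt MET and 38.5 and 31.7 CPM with MET∆14, and the libraries overlapped. For CLDN12 the difference was 0.63 at 3 h, 1.28 at 6 h (SE 0.107; adjusted p = 8.9e-07 by edgeR) and 0.56 at 12 h, higher with MET∆14 at each time. For F11R it was -0.80 at 6 h (adjusted p = 0.00189) and -0.94 at 12 h (adjusted p = 0.000798), since the gene fell with MET∆14 and was not called with wt MET.

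CLDN1 changed sign over time. Its response was higher with MET∆14 by 0.86 at 3 h (SE 0.173; adjusted p = 0.00296 by edgeR), and differed by -0.63 at 12 h (SE 0.173; adjusted p = 0.0155). The 12 h difference was lost without replicate 2 of the wt MET libraries at 0 h (adjusted p = 0.0661) or 12 h (adjusted p = 0.0504), or replicate 1 of MET∆14 at 0 h (adjusted p = 0.0656). TJP1 (adjusted p = 0.0193) and OCLN (adjusted p = 0.0207) passed the test over the 3 times, and both lost it without replicate 1 at 3 h of either line, which left 4 of 9 members called. OCLN also lost it without replicate 2 of wt MET at 3 h or at 12 h.

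**Figure D3:**
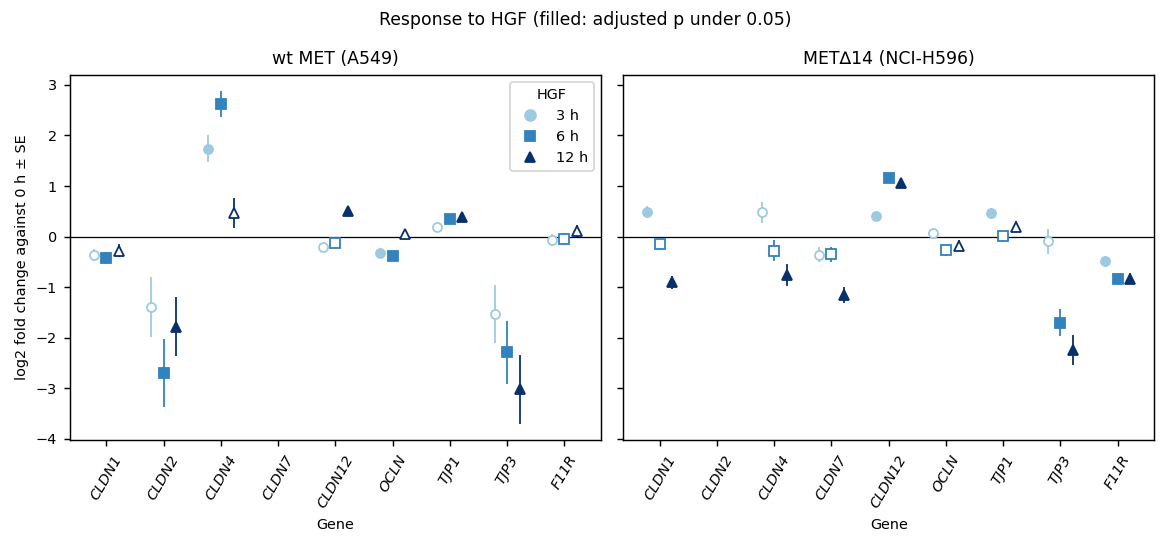
log2 change against 0 h (points, with SE) of each member at 3, 6 and 12 h in each line; filled symbols have an adjusted p under 0.05, and CLDN7 with wt MET and CLDN2 with MET∆14 are left out because they were at or near 0 counts. CLDN4 with wt MET reaches 2.62 at 6 h, CLDN12 with MET∆14 reaches 1.15, and TJP3 is at -2.29 with wt MET at 6 h and at -2.24 with MET∆14 at 12 h.

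The study's own model has line and time as additive terms, and asks for a shared effect of time. In that form, fitted by edgeR, 5 of 9 members were called (CLDN2, CLDN4, CLDN7, CLDN12 and TJP3), against 30.6% of all genes tested. DESeq2, the study's tool, also called 5, with TJP1 in place of CLDN2 (5496 of 15067 genes called). With no filter on low counts, edgeR called 6, without CLDN2 and with CLDN1 and F11R (5641 of 23045 genes called). TJP3 had the smallest adjusted p (0.000169 by edgeR), and each of its calls within a line was a fall. CLDN4 was called (adjusted p = 0.0242), although its responses differed between the lines, and it was lost without either wt MET library at 12 h, which left 3 members called without replicate 1. CLDN2 was lost in 7 of the 16 fits without 1 library. F11R (adjusted p = 0.0963) and CLDN1 (adjusted p = 0.0852) were not called in this model by edgeR with the filter. The test within MET∆14 cells called both.

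The changes altered the mix of claudin transcripts. Of 24 claudin genes in the table, 20 had a count in at least 1 library and 11 were tested, and the RPKM of all claudins was summed in each library. CLDN1 made up 78.7% ± 1.10 (SD, n = 2) of the sum with wt MET at 0 h and 65.2% ± 0.921 at 6 h, when CLDN4 had gone from 0.895% ± 0.160 to 6.02% ± 2.17. CLDN15, which forms cation pores, went from 7.58% to 12.7%. With MET∆14, CLDN1 made up 67.1% ± 0.319 at 0 h and 58.9% ± 2.32 at 12 h, and CLDN12 went from 3.71% ± 0.184 to 12.8% ± 1.18. CLDN7 held 13.6% ± 0.540 of the claudin sum in MET∆14 cells at 0 h and 10.05% ± 0.764 at 12 h. At 3 h with MET∆14 the CLDN1 share was higher, at 73.5% ± 3.89. The sum itself was 145, 126, 131 and 138 RPKM at 0, 3, 6 and 12 h with wt MET. With MET∆14 it was 102, 131, 93.7 and 62.2 RPKM, with its highest value at 3 h. These shares were not tested.

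**Figure D4:**
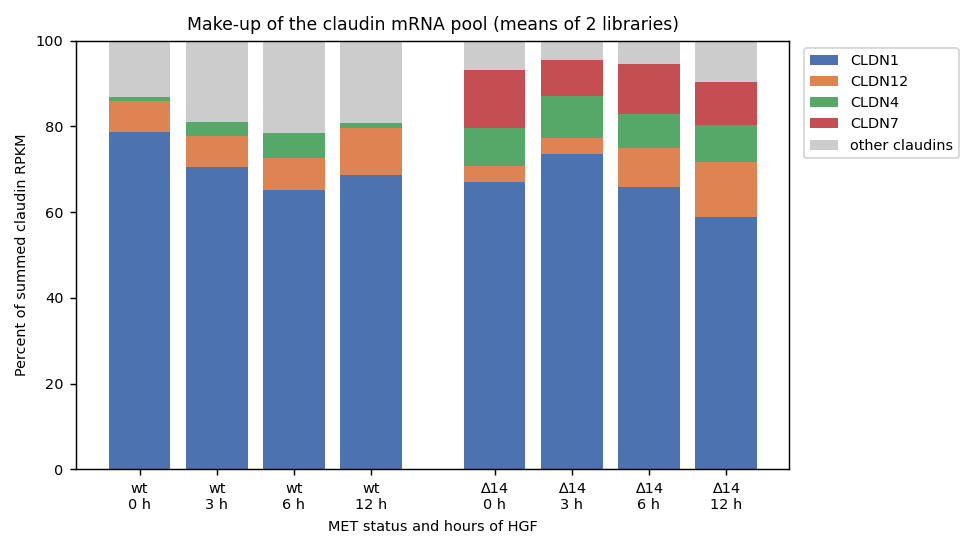
Percent of the summed claudin RPKM held by CLDN1, CLDN12, CLDN4, CLDN7 and all other claudins (stacked bars, means of 2 libraries) for each line and time. CLDN1 holds most of the sum in every group, from 58.9% with MET∆14 at 12 h to 78.7% with wt MET at 0 h, and CLDN7 is visible only with MET∆14.

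The other genes of the tight junction were taken from a list of 55, of which 40 were tested. With wt MET 18 were called at any time, 11 with a positive and 7 with a negative mean change, and with MET∆14 23 were called, 9 and 14 in these directions. These are 45.0% and 57.5% of those tested, near the 40.3% and 54.1% of all genes. Among the largest mean rises with wt MET were those of CLDN9 (log2 1.296), PRKCI (0.71), the atypical protein kinase C of the polarity complex, and CLDN15 (0.52), and among the largest mean falls those of AMOTL1 (-0.62) and MAGI1 (-0.44). With MET∆14, ARHGEF2 (0.86), a junction-bound activator of RhoA, and AMOTL1 (0.46) were among the largest rises. Among called genes with a mean log2 CPM of 1 or more, the largest falls were of ILDR1 (-1.73), AMOT (-1.33) and PATJ (-0.49). ILDR1 is a tricellular junction protein. AMOTL1, of the angiomotin family, thus had responses of opposite sign in the lines, and the difference passed its test (adjusted p = 3.57e-05 by edgeR). It was at a mean of 67.8 CPM at 0 h and 38.3 CPM at 6 h with wt MET, and at 272 CPM at 0 h and 397 CPM at 6 h with MET∆14.

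A list of 16 transcription factors known to repress or activate junction genes was read beside the members. Of the 14 tested, the test for any time called 8 in wt MET cells (57.1%, against 40.3% of all genes) and 10 in MET∆14 cells (71.4%, against 54.1%). The E-box repressors SNAI2, ZEB1 and ZEB2 rose with wt MET, SNAI2 by 3.56 on the log2 scale at 6 h, when it had gone from a mean of 1.33 to 15.7 CPM (adjusted p = 9.94e-09 by edgeR), ZEB1 by 1.20 at 6 h (adjusted p = 3.08e-06) and ZEB2 by 1.17 at 12 h (adjusted p = 2.03e-06). SNAI1 rose by 1.03 at 3 h (adjusted p = 0.00972). Before HGF, however, SNAI2 was already higher with MET∆14 than with wt MET, by 5.52 on the log2 scale (adjusted p = 4.32e-13 by edgeR). It was not called at 3, 6 or 12 h with MET∆14 (adjusted p = 0.258 at 6 h). ZEB1 and ZEB2 were lower with MET∆14 before HGF, with log2 differences of -1.54 and -1.84. With MET∆14, ZEB1 was higher by 0.88 at 12 h (adjusted p = 0.0001) and ZEB2 by 0.51 (adjusted p = 0.00584). The epithelial activator ELF3 fell by 1.299 at 6 h with wt MET (adjusted p = 7.75e-05) and fell by 3.04 with MET∆14 (adjusted p = 1.86e-07). With MET∆14 the grainyhead factor GRHL3 fell by 1.80 at 3 h (adjusted p = 3.34e-06) and EHF by 0.42 at 12 h (adjusted p = 0.00166). KLF5 moved in opposite directions, up by 0.75 with wt MET and down by 0.59 with MET∆14 at 12 h, and its responses differed (adjusted p = 9.37e-07). GRHL1 was called in both lines, and at 12 h it was higher by 0.60 with wt MET and by 0.50 with MET∆14. KLF4 rose by 0.25 with wt MET and fell by 0.35 with MET∆14 at 12 h, and OVOL1 rose by 0.81 with MET∆14 at 3 h (adjusted p = 0.0469). Of the members that hold an E-box, TJP3 fell in both lines, CLDN7 fell with MET∆14, TJP1 rose at times in both lines, and OCLN fell and recovered with wt MET. A part of these factors or of the motif in any of these changes was not tested.

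For each member, the genes with the most similar course were found by Pearson's r of log2 CPM over the 16 libraries after centring within each line, among 9638 genes. These libraries share their conditions, so that r is given as a description. F11R was followed most closely by IFNGR1 (r = 0.966) and AP3S2 (0.955), CLDN4 by TIMP3 (0.949) and MAP3K14 (0.933), and CLDN12 by FAM171A1 (0.947) and MTDH (0.943). TJP1 was closest to CRTC3 (0.942) and REST (0.938), CLDN1 to MFF (0.929) and PLCD3 (0.925), and OCLN to SOX7 (0.909) and HOXC13 (0.908). For TJP3 they were CAT (0.943) and CP (0.939), for CLDN7 GGT1 (0.891) and SLC27A2 (0.884), and for CLDN2 TRAF3IP1 (0.912) and TYSND1 (0.892). With a prior count of 0.5 in place of 2, the pairs for TJP3 and CLDN7 and 1 of those for CLDN2 were different genes, which are the members with the fewest counts in one of the lines.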

How the data were processed

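Polyadenylated RNA of A549 (wt MET) and NCI-H596 (MET∆14) cells was sequenced in what the study calls biological duplicates. Nothing else says that they came from separate cultures, so p-values measure the spread between these libraries. The deposited table holds whole-number counts per gene without normalization. According to the submitters' processing notes, STAR 2.5.0, RSEM 1.3.2 and hg38 were used by the authors. Whether the whole numbers are rounded estimates of RSEM is not given in the sources used here. The study's methods name the Ensembl hg38 assembly. The release of the annotation and the use of strand in counting are not given in the sources used here, so overlapping genes are uncertain. The wt MET columns carry a line name that differs slightly from their titles, and were matched by the rest of the name.

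The members and all gene lists were chosen with earlier results of these data known. Differential expression was tested by edgeR 4.0.16 under R 4.3.3 (filterByExpr with a minimum count of 10 and a minimum total of 15, TMM scaling, robust quasi-likelihood fit with 1 coefficient per condition over 16 libraries). The Benjamini-Hochberg adjustment covered 15067 genes, with a threshold of 0.05. The study's additive model was fitted with the same tool. CPM was computed on TMM-scaled sizes, with a prior count of 2 for its logarithm. RPKM used merged exons of the GENCODE annotation supplied for hg38, and a library was taken as at the floor at 3 counts or fewer. Counting intervals are 95%. From the other lists, the text names the 3 tight junction genes with the largest mean rise and fall per line among those called and expressed (mean log2 CPM 1 or more), and the called regulators at that level, except that 1 gene that met the rule is not reported here. The 2 most similar genes per member were taken among tested genes whose mean log2 CPM was 3 or more. Alternatives were DESeq2 1.42.0, its size factors in edgeR, no filter, at least 10 counts in every library, each line alone, a replicate block, leaving out each library in turn and, chosen after seeing the data, added counts of overlapping or duplicated loci. The scripts were tested on simulated data.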

Additional observations from a re-analysis of the deposited data

Results flagged for a closer look

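The response to HGF differed between the lines, in the interaction test over the 3 times by edgeR with Benjamini-Hochberg adjustment, for 6 members. The adjusted p was 4.81e-06 for CLDN12, 9.19e-05 for CLDN1, 0.000131 for CLDN4, 0.00144 for F11R, 0.0193 for TJP1 and 0.0207 for OCLN.

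Among the other tight junction genes named in the text it differed for PRKCI (adjusted p = 2.74e-05), ARHGEF2 (3.13e-05), AMOTL1 (3.57e-05), CLDN9 (0.014) and PATJ (0.0187). No group was large enough for a test of outlying libraries, since each holds 2.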

How the results depend on the processing

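The counts of members called stayed within 1.5 times under DESeq2, its size factors, no filter, each line alone and added loci. With each line alone, CLDN7 and TJP3 were no longer tested with wt MET, and CLDN2 was no longer tested with MET∆14. In these fits, 6 of the 7 members tested were called with wt MET and 7 of the 8 with MET∆14. The members behind these counts were not always the same. In the additive model, CLDN2 was lost and TJP1 gained under DESeq2, and CLDN2 was lost and CLDN1 and F11R gained with no filter. When 1 library was left out, they ranged from 3 to 7 for wt MET, from 7 to 8 for MET∆14, from 9 to 9 at 0 h, from 4 to 6 for the difference between the lines, and from 3 to 6 for the additive model. With at least 10 counts in every library, 6 members could be tested, since CLDN2, CLDN7 and TJP3 were no longer tested. In the additive model 2 of them were called, beside 3885 of 11349 genes. DESeq2 gave no adjusted p for CLDN2 in 3 of these tests. Of 57 called changes of single members, 1202 of 1273 alternative values stayed on their side of the threshold, 71 lost it, and the cause was not tested.

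No pairing of the libraries by replicate number was seen, as r of same-numbered deviations was -0.159 to 0.111 over 28 pairs of groups and above 0.1 in 1. Taken over all genes tested, r cannot exclude a batch that affects only some genes. With the replicate block, 6 members were called with wt MET, without CLDN1, and the other counts were 7 (MET∆14), 9 (0 h), 6 (difference) and 5 (additive). In the same order, 5819, 7857, 12026, 5377 and 4105 of all 15067 genes were called. Depth limits CLDN2, CLDN7 and TJP3 in the line where they have few counts.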
